A study of Mus musculus with 24 samples.

Results

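The genes described here move zinc across membranes or hold it in the cytosol of an insulin-storing cell: *Tmem163*, the SLC30 genes *Slc30a1*, *Slc30a5*, *Slc30a7* and *Slc30a8*, the SLC39 genes *Slc39a6*, *Slc39a10* and *Slc39a14*, and the metallothionein genes *Mt1* and *Mt2*. They were chosen by symbol: *Tmem163* because its difference between verapamil-treated and control cells was among the largest of the whole table, and the other genes to be set beside it. Of these 10 listed genes, 9 have a row among the 12310 genes of the count table, and the level of *Mt2* is not analysed here. The values of the 9 genes in verapamil against control were therefore known when they were chosen and are given as a description without a test. Where these genes are named as called higher or lower, this too is a description.

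RNA sequencing counted transcripts of MIN6, an insulin-secreting line derived from a mouse insulinoma and labelled wild type, in 12 libraries of cells treated with verapamil (50 µM; 24 h), a blocker of L-type calcium channels, and in 12 libraries of untreated cells (control). Both groups were kept at 5.6 mM glucose, in medium with fetal bovine serum, and both come from this established tumor line rather than from primary islets. Libraries fall into 4 experiment sets with 3 libraries per group and set, taken here from the leading digit of each label's description, although no source used here states that this digit marks the set. Columns C11, C12, V11 and V12 could each be more than 1 of the labelled samples, so they were used as unnumbered replicates, in set 4 by elimination.

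Zinc is stored at high concentration in the insulin granule, where it co-crystallizes with insulin and is released with it. SLC30 transporters move zinc out of the cytosol, either across the plasma membrane or into granules, Golgi and other vesicles, and TMEM163 is a zinc efflux protein of the same superfamily. SLC39 transporters bring zinc into the cytosol, metallothioneins bind it there, and the transcription factor MTF1 senses free zinc and activates metallothionein and exporter genes.

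Total counts per library lay between 12590476 and 32360171 in control and between 21840159 and 44806556 in verapamil. Levels are TMM-normalized CPM (read counts scaled to library size), and fold changes are verapamil over control on the log2 scale, from edgeR's quasi-likelihood fit on all 24 libraries. Of the 12306 genes tested, 31.2% were called higher and 31.6% lower at an adjusted p under 0.05, and 62.8% in either direction. In the verapamil libraries each gene's deviation from its mean in control also followed GC content and transcript length: Pearson's r over genes, which do not count as replicates, was 0.04 to 0.64 with GC content in verapamil and -0.20 to 0.17 in control, and with length it was -0.59 to -0.06 in verapamil, lowest in the library of column V11, and -0.15 to 0.13 in control. Verapamil libraries of sets 2 and 3 followed GC content the most, with a mean r of 0.554 and 0.563 against 0.195 and 0.16 in sets 1 and 4. With these trends taken out as offsets of each gene and library, 37.6% of the calls were higher, with the trends as covariates 60.2%, and without either 49.7%. The trends were fitted on deviations from control and differ between the groups. An effect of verapamil and a technical trend therefore cannot be told apart in them, and taking them out may also remove such an effect. Neither the corrected nor the uncorrected values are taken as the truer ones. Of the β-cell markers 9 of 10 have a row, and their summed level was 2900 to 3854 CPM in control and 2703 to 3509 CPM in verapamil. By the same threshold 1 of these 9 was called higher, 4 lower and 4 in neither direction. The sum thus does not show that each marker was stable. Markers of delta, PP and endothelial cells and of leukocytes have no row in the table used here. Of the alpha-cell markers *Gcg* alone has a row, at 173.6 to 198.4 CPM in control and 176.4 to 333.2 CPM in verapamil. The ductal markers summed, over 2 genes with a row, to 34.77 to 44.22 and 35.87 to 53.66 CPM, with 1 called higher and 1 lower. The fibroblast marker with a row was at most 1.446 CPM, and the part of other cell types in the results below was not tested.

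Verapamil-treated cells held more *Tmem163* transcript and less *Slc30a8* transcript than control cells, in all 12 libraries of each group. The importer *Slc39a10* was lower, *Mt1* was higher, and the remaining 5 genes differed by smaller amounts. By the call rule above, 3 of the 9 genes were called higher (*Tmem163*, *Mt1* and *Slc30a7*), 3 lower (*Slc30a8*, *Slc39a10* and *Slc39a14*) and 3 neither, with a median log2 fold change of -0.13 beside -0.003 over all genes tested. Since the genes were chosen with this contrast known, nothing is read from that count. The sign was the same in all 4 experiment sets for 7 of the 9 genes, *Slc30a1* and *Slc30a5* being the exceptions, beside 60.3% of the genes tested. These signs are parts of the same known contrast, so nothing is read from this count either. In bulk RNA, fewer cells with a transcript and less of it per cell cannot be told apart.

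**Figure D1:**
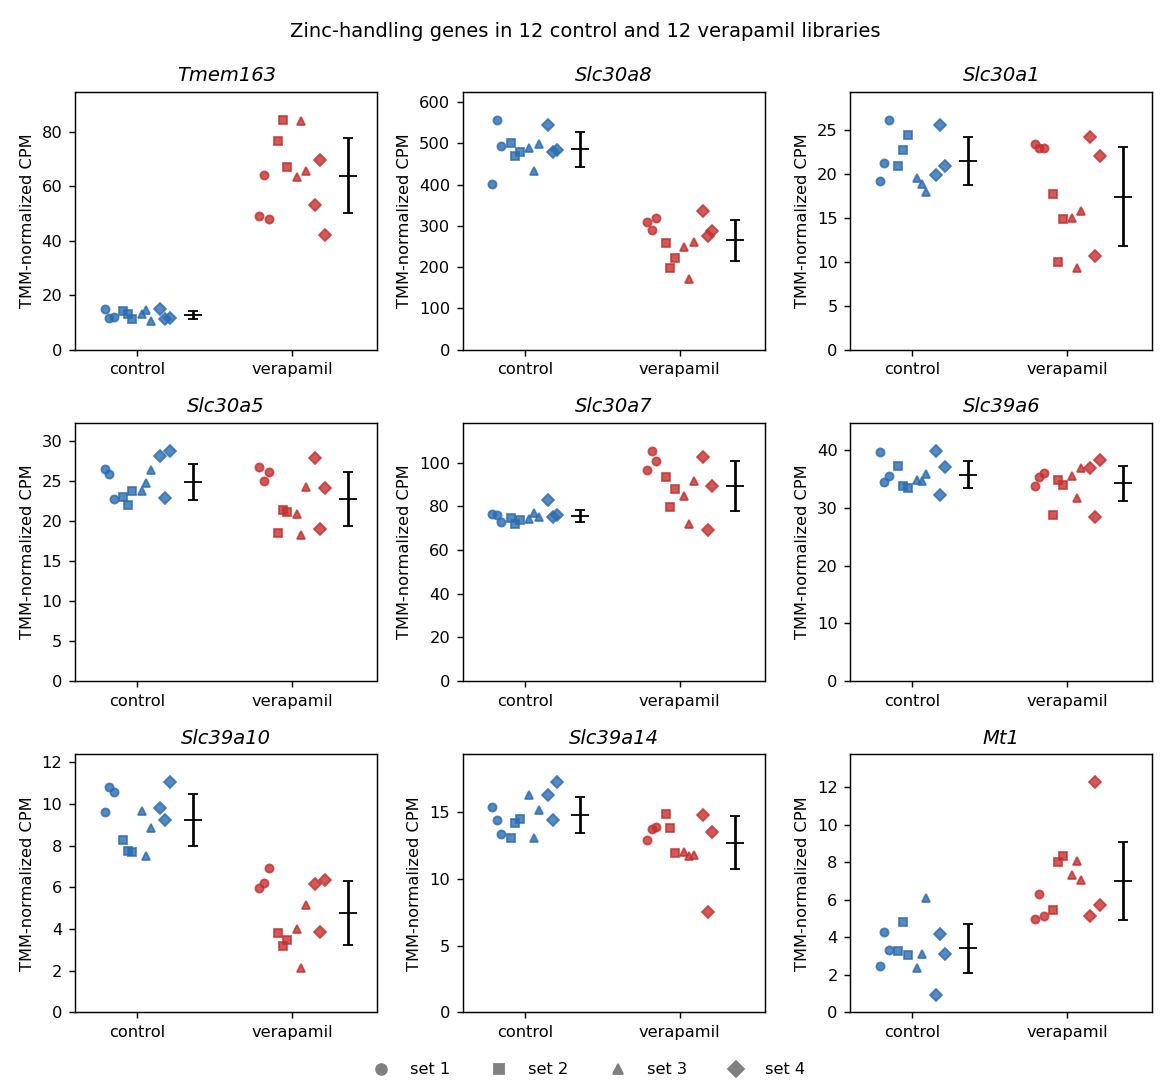
TMM-normalized CPM (vertical axes, linear, from 0) of the 9 genes in each library, control in blue and verapamil in red, with the marker shape for the experiment set and black bars for the mean ± SD of 12 libraries. *Tmem163* lies between 10.68 and 15.01 CPM in control and between 42.1 and 84.49 CPM in verapamil, whereas for *Slc39a6* 9 of 12 verapamil libraries lie inside the control range.

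*Tmem163* (ENSMUSG00000026347, GRCm38 chr1:127486546-127679548, minus strand, protein coding) was measured at 10.68 to 15.01 CPM in the control libraries (median 12.59) and at 42.1 to 84.49 CPM in the verapamil libraries (median 64.88). Every verapamil library lay above every control library, and the lowest verapamil value was far from the highest control value. Such complete separation upwards was found for 4.95% of the genes tested. The means were 12.76 ± 1.535 CPM (SD, n = 12) and 63.95 ± 13.81 CPM (SD, n = 12), a log2 fold change of 2.32 (SE 0.106) or 5.00-fold, which ranked 10 among the 12306 genes. Reads behind these values numbered 133 to 443 per control library and 1081 to 2169 per verapamil library.

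By experiment set, the log2 difference of *Tmem163* was 2.07 (SE 0.185) in set 1, 2.56 (SE 0.188) in set 2, 2.47 (SE 0.189) in set 3 and 2.12 (SE 0.186) in set 4. The control means of the 4 sets were nearly alike, at 12.81, 12.85, 12.75 and 12.62 CPM, and the verapamil means were 53.76, 76, 70.98 and 55.04 CPM. The higher verapamil levels thus stood in sets 2 and 3, those in which the libraries followed GC content the most. With the GC and length trends as offsets the fold change was 2.08 (SE 0.0714), with the trends as covariates 1.91 (SE 0.0771), and without sets 2 and 3 it was 2.095.

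The 3′ region of *Tmem163* overlaps *Mgat5*, a glycosyltransferase gene on the opposite strand, by 1791 bases, 152 of them exonic in both genes. Strand was not stated for the counting, so reads in these 152 bases cannot be told apart. *Mgat5* had 82.97 CPM in the control libraries and 59.29 CPM in the verapamil libraries, a log2 fold change of -0.49 (SE 0.135; adjusted p = 0.00347, edgeR), opposite in direction to *Tmem163*.

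*Slc30a8* (ENSMUSG00000022315, GRCm38 chr15:52295553-52335798, plus strand) encodes the transporter that loads zinc into insulin granules. Its level was 400.8 to 557.4 CPM in control (median 485.8) and 170.4 to 335 CPM in verapamil (median 269). All verapamil libraries lay below all control libraries, a separation downwards found for 5.18% of the genes tested. The means were 485.5 ± 41.93 and 264.6 ± 49.01 CPM (SD, n = 12 each), and the log2 fold change was -0.88 (SE 0.0859).

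The log2 difference of *Slc30a8* was -0.66 (SE 0.137), -1.09 (SE 0.139), -1.06 (SE 0.138) and -0.74 (SE 0.138) in sets 1, 2, 3 and 4. In each set, all 3 verapamil libraries were below all 3 control libraries. The value was -0.82 with the GC and length offsets, -0.57 with the trends as covariates and -0.70 without sets 2 and 3, so the direction was kept and the covariates gave the smallest size.

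Levels of different genes were compared per length, as TPM (reads per length, scaled to library size) over the genes of the table, using the exon length of each gene. TPM was scaled without TMM, so differences between the groups are not those of CPM. *Slc30a7*, for example, had means of 75.51 CPM in control and 89.51 CPM in verapamil, but 21.79 and 22.86 TPM. In control, *Slc30a8* was at 790.4 ± 73.26 TPM (SD, n = 12), rank 223 of the table, and *Tmem163* at 9.541 ± 1.197 TPM, rank 7485. In verapamil, they were at 382.3 ± 94.2 and 41.43 ± 6.367 TPM. *Tmem163* amounted to 0.954% to 1.70% of the *Slc30a8* level in the control libraries (median 1.18%) and to 6.70% to 22.7% in the verapamil libraries (median 11.6%). The ranges do not overlap, and in the verapamil libraries *Slc30a8* was still the more abundant transcript of the pair throughout. Summed over the 8 exporter genes that have a row, *Tmem163* included, *Slc30a8* made up 85.6% ± 1.06 of the TPM in control and 73.6% ± 2.52 in verapamil (SD, n = 12), and *Tmem163* 1.04% ± 0.175 and 8.66% ± 3.33. The exporter sum without *Slc30a8* was 132.1 ± 5.41 TPM in control and 134.6 ± 23.8 TPM in verapamil, with *Tmem163* contributing more and *Slc30a9* and *Slc30a4* less. These shares and this sum depend on the length used. *Slc30a9* was at 48.92 TPM in control and 32.08 TPM in verapamil by exon length. By the length of the longest transcript it was at 83.97 and 55.44 TPM, and the sum was not computed for that length.

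**Figure D2:**
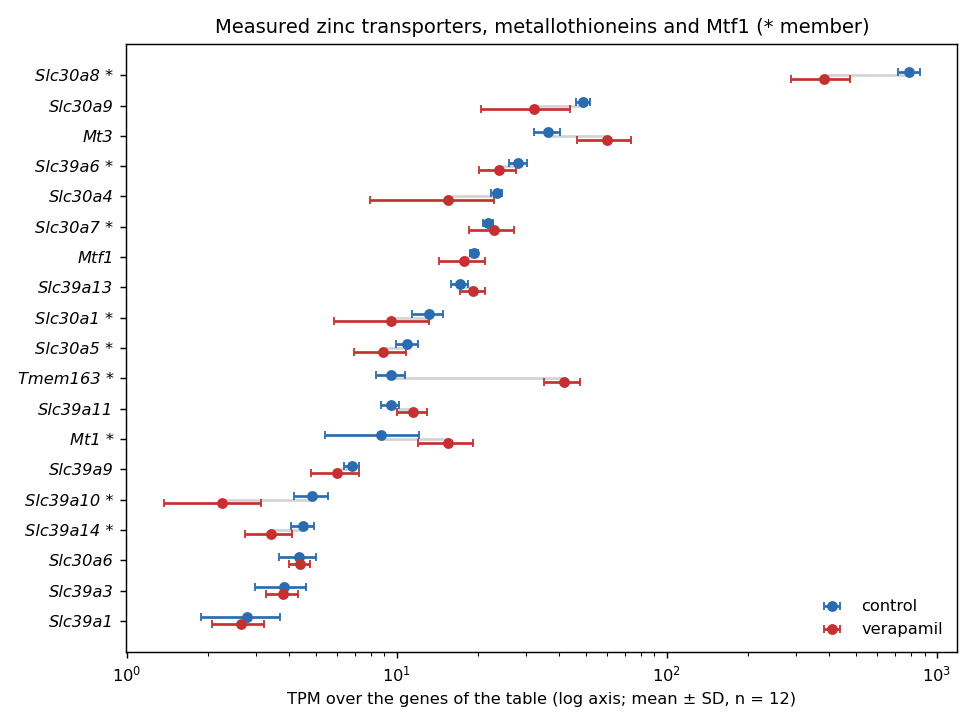
Level per length of the 19 measured zinc-handling genes (horizontal axis, TPM over the genes of the table, log axis; mean ± SD of 12 libraries), control in blue and verapamil in red, with an asterisk for the 9 genes described here. *Slc30a8* leads in both groups, at 790.4 and 382.3 TPM, and *Tmem163* moves from 9.541 to 41.43 TPM, above every other gene but *Slc30a8* and *Mt3*, although with the length of the longest transcript *Slc30a9* is higher too (55.44 against 40.75 TPM in verapamil).

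The order of the control levels after *Slc30a8* was *Slc39a6* (28.16 ± 2.057 TPM), *Slc30a7* (21.79 ± 0.956), *Slc30a1* (13.11 ± 1.748), *Slc30a5* (10.94 ± 1.01), *Tmem163* (9.541 ± 1.197), *Mt1* (8.749 ± 3.318), *Slc39a10* (4.863 ± 0.704) and *Slc39a14* (4.503 ± 0.433). Each pair of neighbours in this order from *Slc30a1* down to *Slc39a14* differed by less than the sum of their SDs. With the length of the longest transcript in place of the exon length, *Slc30a5* stood at 15.8 TPM, above *Slc30a1* at 10.38 TPM, and *Slc39a14* at 7.355 TPM, above *Slc39a10* at 4.271 TPM, so these orders depend on the length used. *Mt1* is annotated as 1 exon block of 1246 bases, its whole span, with a longest transcript of 1085 bases. Were its reads from a shorter transcript, its TPM would be higher, so the place of *Mt1* in this order is uncertain too.

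*Slc30a7* (ENSMUSG00000054414), a zinc transporter of the Golgi, was at 71.83 to 83.09 CPM in control (median 75.16) and at 69.11 to 105.5 CPM in verapamil (median 90.43). In verapamil, 9 of 12 libraries lay above every control library and 1 lay below all of them. The log2 fold change was 0.25 (SE 0.0587), and by set it was 0.43, 0.25, 0.14 and 0.16, largest in set 1. Its longest transcript is among the long ones (96.1th percentile of all genes) and the gene is poor in GC (16.3th percentile), and with the GC and length offsets its value was 0.91 (SE 0.0907).

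*Slc30a1* (ENSMUSG00000037434), the exporter of the plasma membrane and a known MTF1 target, was at 17.91 to 26.13 CPM in control (median 20.88) and at 9.266 to 24.15 CPM in verapamil (median 16.68). The groups overlapped, with 7 of 12 verapamil libraries below every control library and the other 5 inside the control range. The log2 fold change was -0.30 (SE 0.144), and by set 0.06 (SE 0.239), -0.68 (SE 0.242), -0.49 (SE 0.245) and -0.22 (SE 0.241). It was -0.09 with the GC and length offsets and 0.29 with the trends as covariates, so the direction for *Slc30a1* depends on how these trends are treated. As a description, *Slc30a1* was called in neither direction by the rule above. It was called lower with the experiment set as a block (-0.33), without set 1 (-0.45) and within set 2 (-0.70), and not with counts summed per set (-0.30).

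*Slc30a5* (ENSMUSG00000021629), a transporter of the early secretory pathway, was at 21.94 to 28.77 CPM in control and at 18.26 to 27.85 CPM in verapamil. Here too the groups overlapped, with 6 of 12 verapamil libraries below every control. The log2 fold change of -0.13 (SE 0.0726) became 0.31 (SE 0.0709) with the GC and length offsets, and its exons are GC-poor (11.4th percentile).

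Among the importers, *Slc39a10* (ENSMUSG00000025986, GRCm38 chr1:46807544-46892852, minus strand), a plasma membrane zinc importer, was at 7.479 to 11.05 CPM in control (median 9.42) and at 2.114 to 6.922 CPM in verapamil (median 4.578). All verapamil libraries were below all control libraries, although the highest verapamil value came close to the lowest control value. The means were 9.23 ± 1.251 and 4.767 ± 1.549 CPM (SD, n = 12 each), and the log2 fold change was -0.95 (SE 0.147), from 110 to 300 reads per control library and 47 to 313 per verapamil library.

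By set, the log2 difference of *Slc39a10* was -0.70 (SE 0.211), -1.18 (SE 0.222), -1.19 (SE 0.222) and -0.88 (SE 0.215), again farther from 0 in sets 2 and 3. With the GC and length offsets it was -0.60 and with the trends as covariates -0.38, less than the -0.78 found without sets 2 and 3.

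*Slc39a6* (ENSMUSG00000024270), a partner of the *Slc39a10* product in the plasma membrane, was at 32.28 to 39.91 CPM in control and at 28.51 to 38.28 CPM in verapamil. The groups overlapped for 9 of 12 verapamil libraries, and the log2 fold change was -0.06 (SE 0.0516). In the 4 sets it lay between -0.10 and -0.01. The members of this partner pair thus differed in size, and the difference between them was not tested.

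*Slc39a14* (ENSMUSG00000022094), a carrier of zinc, iron and manganese, was at 13.09 to 17.28 CPM in control and at 7.497 to 14.88 CPM in verapamil, with 6 of 12 verapamil libraries below every control. The log2 fold change was -0.22 (SE 0.0816), made up of -0.09 and -0.04 in sets 1 and 2 and of -0.33 and -0.42 in sets 3 and 4. With the trends as covariates it was -0.03. Its call as lower, also a description, was lost in 8 of 20 alternative settings, among them the replicate block (-0.15), leaving out set 3 (-0.19) and those covariates.

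*Mt1* (ENSMUSG00000031765, GRCm38 chr8:94179082-94180327, plus strand), which encodes a cytosolic zinc- and copper-binding protein, was at 0.904 to 6.104 CPM in control (median 3.168) and at 4.959 to 12.28 CPM in verapamil (median 6.683). In verapamil 7 of 12 libraries lay above every control library, and the other 5 lay below only the highest control value. The means were 3.407 ± 1.323 and 6.975 ± 2.08 CPM (SD, n = 12 each), and the log2 fold change was 1.05 (SE 0.199). The depth behind *Mt1* was low, with 23 to 160 reads per control library and 111 to 308 per verapamil library, and its coefficient of variation among controls was 38.8%, the largest of the 9 genes.

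Within each experiment set the verapamil libraries were above the control libraries of that set for *Mt1*, with log2 differences of 0.71 (SE 0.408), 0.97 (SE 0.404), 1.02 (SE 0.416) and 1.51 (SE 0.418). Set 4 held both the lowest control value, 0.904 CPM, and the highest verapamil value, 12.28 CPM, the latter in column V11. *Mt1* is a short gene (14.7th percentile of length), and its value was 0.64 (SE 0.168) with the GC and length offsets and 0.55 (SE 0.201) with the trends as covariates, over 1.5 times less than without them.

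MTF1 binds metal response elements, whose core was searched here as TGCACNC and TGCGCNC on both strands in the promoter windows of RefSeq (GRCm38.p6), which hold 250 bases before and 50 after the start of a gene. The 250 upstream bases are shown for *Mt1* and *Slc30a1*, textbook targets of MTF1 among the listed genes with a row. The same bases are shown for *Mt3*, the metallothionein that was higher in every verapamil library. These stretches lie at chr8:94178839-94179088, chr1:191906531-191906780 and chr8:94152357-94152606, all on the plus strand, and run 5′ to 3′ with matches in capitals. The last bases of the *Mt1* and *Slc30a1* windows lie inside the first exon of the gene models used for the counts.
Mt1: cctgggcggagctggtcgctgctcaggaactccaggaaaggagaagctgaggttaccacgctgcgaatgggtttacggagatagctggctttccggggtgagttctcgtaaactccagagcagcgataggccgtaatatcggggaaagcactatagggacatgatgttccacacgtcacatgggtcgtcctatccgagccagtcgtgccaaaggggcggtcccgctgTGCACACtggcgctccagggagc
Slc30a1: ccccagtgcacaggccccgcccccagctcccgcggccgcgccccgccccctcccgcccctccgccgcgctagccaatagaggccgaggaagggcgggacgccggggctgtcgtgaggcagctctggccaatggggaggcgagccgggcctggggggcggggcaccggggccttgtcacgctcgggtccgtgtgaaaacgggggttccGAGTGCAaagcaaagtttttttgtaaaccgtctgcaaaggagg
Mt3: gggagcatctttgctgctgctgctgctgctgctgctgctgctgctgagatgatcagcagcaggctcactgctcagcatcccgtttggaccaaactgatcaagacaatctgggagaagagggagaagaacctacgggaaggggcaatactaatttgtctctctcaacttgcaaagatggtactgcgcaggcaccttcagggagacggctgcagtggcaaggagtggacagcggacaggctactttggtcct
*Mt1* had 1 match, TGCACAC at 23 to 17 bases before the start, and *Slc30a1* had 1 on the other strand, GAGTGCA at 43 to 37 bases before the start, whereas *Mt3* had none in these letters. Among all 32851 windows 21.406% held at least 1 match in the 250 upstream bases. Of the other listed genes with a window, *Mt2* had 3 upstream matches, beside 1.263% of windows with at least 3. *Slc30a5* had 1, and *Tmem163*, *Slc30a7* and *Slc39a10* had 0. Over the whole 300 bases *Mt1* had 3 matches, *Slc30a1* 2 and *Mt3* 1, beside 1.969% of windows with at least 3, 7.114% with at least 2 and 25.704% with at least 1. A match describes the letters of this window and not a bound site. The sterol response element core TCACNCCAC was searched because genes of lipid synthesis stood near *Tmem163* in pattern (below), only *Tm7sf2* among those named acting in cholesterol synthesis. This core was in 1.053% of windows and in none of the upstream windows of *Tmem163*, *Mt1*, *Slc30a1* or *Mt3*.

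Other genes of the same families are given for comparison. Of 20 further zinc transporter, metallothionein and *Mtf1* genes on the lists, 10 have a row, and of these 4 were higher, 2 lower and 4 passed in neither direction (edgeR, adjusted p under 0.05 over all genes; background 31.2% and 31.6%), with a median log2 fold change of 0.15. These lists too were drawn up with earlier results of the data known.

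*Mt3* (ENSMUSG00000031760), the neuronal metallothionein, was at 10.02 to 13.61 CPM in control (median 12.08) and at 14.99 to 33.43 CPM in verapamil (median 22.34). No verapamil library reached down into the control range. *Mt3* rose by 0.94 (SE 0.128; adjusted p = 1.61e-06, edgeR) on the log2 scale, and by 0.39 and 0.32 with the GC and length trends as offsets or covariates. It is short and GC-rich (5.3th percentile of length and 98.5th of GC content). The level of *Mtf1* itself was 53.65 ± 2.254 CPM in untreated and 55.66 ± 7.377 CPM in treated cells (SD, n = 12), at a log2 fold change of 0.05 (SE 0.0625; adjusted p = 0.469, edgeR), and with the GC and length offsets at 0.23 (adjusted p = 1e-05). Its exons share 721 bases with an opposite-strand gene.

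Among the remaining exporters, *Slc30a9*, a mitochondrial zinc transporter, fell by 0.45 (SE 0.125; adjusted p = 0.00348, edgeR) on the log2 scale, with 188.7 ± 11.19 CPM in control against 138.2 ± 40.62 CPM in verapamil (SD, n = 12). *Slc30a4*, a vesicular exporter, fell from 40.09 ± 1.82 to 29.13 ± 12.3 CPM (-0.46, SE 0.176; adjusted p = 0.026, edgeR). Neither call held with counts summed per set (adjusted p = 0.0689 for *Slc30a9* and 0.128 for *Slc30a4*) or once the GC and length trends were taken out. *Slc30a9* was at -0.08 with the offsets (adjusted p = 0.215) and 0.08 with the covariates (adjusted p = 0.137), and *Slc30a4* was at 0.05 with the offsets (adjusted p = 0.567) and higher, at 0.29, with the covariates (adjusted p = 0.00035). *Slc30a6*, the partner of the *Slc30a5* product, rose from 4.143 to 4.8 CPM (0.21, SE 0.0834; adjusted p = 0.0319, edgeR), a call lost in 11 of 20 alternative settings, among them counts summed per set (adjusted p = 0.104), the replicate block (adjusted p = 0.0608) and leaving out set 1, 2 or 3 (adjusted p = 0.0527, 0.173 and 0.244).

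Of the remaining importers, *Slc39a11* rose from 9.935 ± 0.774 to 13.73 ± 2.037 CPM (0.47, SE 0.0736; adjusted p = 1.09e-05, edgeR), and 11 of 12 verapamil libraries were above every control. *Slc39a13*, an intracellular zinc transporter, rose from 25.99 ± 1.774 to 33.4 ± 5.437 CPM (0.36, SE 0.0738; adjusted p = 0.000217, edgeR). With the GC and length offsets *Slc39a11* was at 0.17 (adjusted p = 0.0238) and *Slc39a13* at 0.02 (adjusted p = 0.782), and *Slc39a13* shares 215 exon bases with *Psmc3* on the opposite strand (log2 fold change 0.33). *Slc39a9* was at 21.6 and 21.54 CPM (adjusted p = 0.975, edgeR). *Slc39a3* and *Slc39a1*, which fall outside the rule for named genes and are given after their values were seen, were at 0.19 (adjusted p = 0.155) and 0.12 (adjusted p = 0.518).

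**Figure D3:**
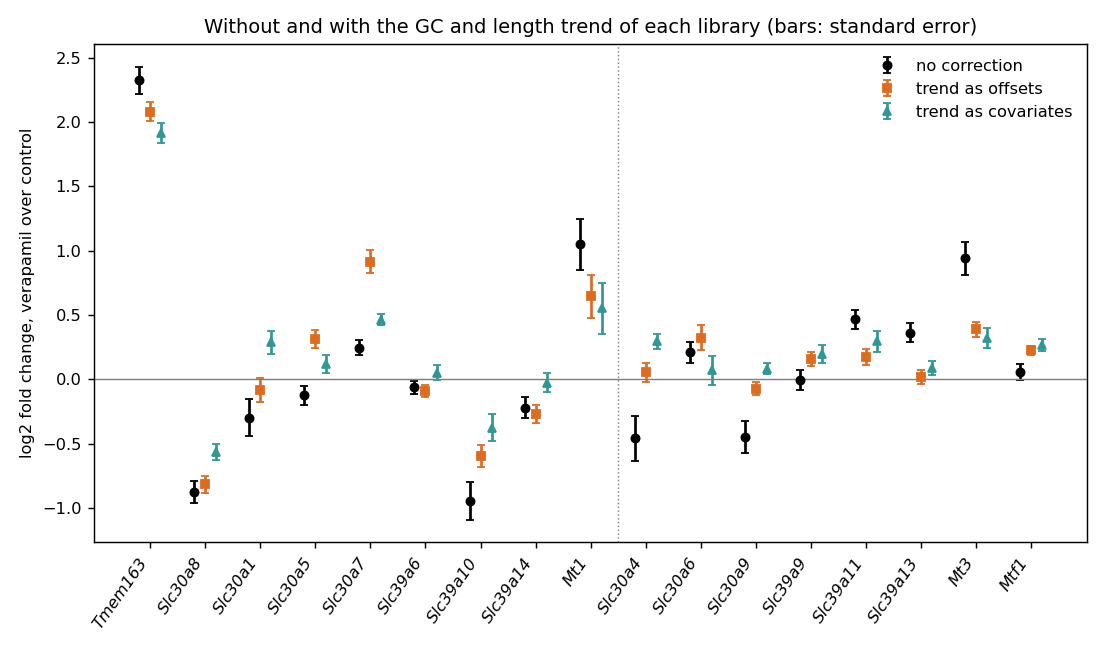
Log2 fold change, verapamil over control (vertical axis; bars, SE), of the 9 genes on the left of the dotted line and of 8 other zinc genes on the right, without correction (black circles) and with each library's GC and length trend as offsets (orange squares) or covariates (green triangles). *Tmem163* stays between 1.91 and 2.32, *Slc30a8* between -0.88 and -0.57, while *Slc30a4*, *Slc30a9*, *Slc30a1*, *Slc30a5*, *Slc39a6* and *Slc39a9* have values on both sides of 0.

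Whether the response of a gene differed between experiment sets is a measure that its choice did not use, and was tested by the interaction of set and treatment in the same edgeR model. Of all genes, 9.72% passed (1196 genes). Among the 9 zinc genes 0 passed, with *Slc30a8* at the lowest adjusted p of 0.254 and *Tmem163* at 0.365, and 0 were under 0.05 unadjusted, where 26.2% of all genes were. A miss at this threshold does not show that the sets responded alike: with 3 libraries per set and group, the SE of a difference within a set was 0.185 to 0.189 for *Tmem163* and 0.404 to 0.418 for *Mt1*. Without the library of column V11, 4054 genes passed, and among the zinc genes *Slc30a1* came nearest, with an adjusted p of 0.0512 (edgeR).

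Untreated levels were compared between the sets as well, within the 12 control libraries. Of all genes 0.0244% passed (3 genes) and 0 of the 9 zinc genes did, with a lowest adjusted p of 0.722 (edgeR), that of *Slc39a10*. Its control means were 10.35, 7.888, 8.658 and 10.03 CPM in sets 1 to 4, with an unadjusted p of 0.0115 in edgeR, the only one under 0.05 among the 9. For *Tmem163* the adjusted p was 0.998.

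**Figure D4:**
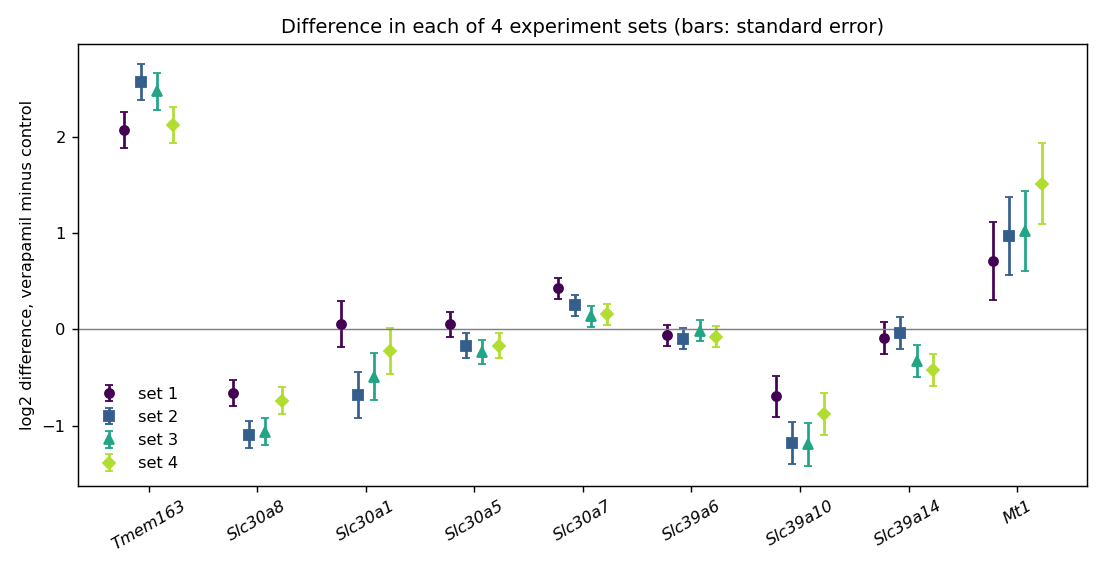
Log2 difference, verapamil minus control (vertical axis; bars, SE), of the 9 genes in each of the 4 experiment sets, with 3 libraries per group and set. *Tmem163* lies between 2.07 and 2.56 and *Mt1* between 0.71 and 1.51 in all sets, *Slc30a8* and *Slc39a10* lie below 0 in all sets, and *Slc30a1* and *Slc30a5* are above 0 in set 1 only.

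Among the protein-coding genes whose levels followed *Tmem163* most closely over the 24 libraries, out of 8016 compared, were *Mid1ip1* (Pearson's r 0.989), *Acss2* (0.989), *Mest* (0.988) and *Tm7sf2* (0.988). *Mid1ip1* and *Acss2* act in fatty acid and acetyl-CoA synthesis, and *Tm7sf2* in cholesterol synthesis. Since r over both groups mostly reflects the difference between them, it was also computed after the mean of each group was taken off, which gave 0.77, 0.723, 0.674 and 0.674. The points share libraries, depth and the GC and length trends, and these values are a description.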

How the data were processed

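The deposited values are raw counts, 1 per gene and library, which the authors made with bcl2fastq 2.20, Trimmomatic 0.39, HISAT2 2.1.0 on GRCm38 and HTSeq 0.9.1 as named in the methods and the submitters' processing notes. The paper and the labels differ on the RNA input and the library kit, and no source used here gives the strand setting of HTSeq, so reads of overlapping genes on opposite strands may be mixed. The authors' own comparison columns (average log2 CPM, fold change, p-values) were not used.

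Groups come from the labels, and the members and gene lists were chosen with earlier results of these data known. Genes were filtered with filterByExpr (minimum count 10, minimum total 15), normalized by TMM and tested with edgeR 4.0.16 in R 4.3.3 (quasi-likelihood, no covariates, 12306 genes, Benjamini-Hochberg, threshold 0.05). SE was taken as |log2 fold change| over the root of F. The scripts were tested on simulated data first. DESeq2 1.42.0 was an alternative. GC content and exon lengths came from GENCODE M21, to which all 12310 rows matched by Ensembl ID. Per library, the log2 deviation of each gene from the control mean was fitted on splines (4 degrees of freedom) of GC content and length, and the fit was used as an offset, or its slopes as covariates. Any pair of libraries in a group differed beyond counting noise (chi-square over its degrees of freedom 5.72 or more). Since the paper and GEO's text disagree on the independence of replicates within a set, p-values reflect only the spread among these libraries, which may be technical. Named were all members, further zinc genes that passed the test with a mean of at least 1 CPM or had at least 10 CPM, and the 5 genes with the highest r with Tmem163 among those with at least 5 CPM, of which 1 is not reported here. Python 3.11.15 with pandas 2.3.3, numpy 2.4.6 and matplotlib 3.10.9 handled annotation, promoters and figures, and limma 3.58.1 is required by edgeR.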

Additional observations from a re-analysis of the deposited data

How the results depend on the processing

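Over 20 alternative settings the log2 fold change of *Tmem163*, chosen for its size in this contrast, was 1.91 to 2.55, and without any 1 library 2.28 to 2.37. *Slc30a8* ranged from -1.11 to -0.57, *Slc39a10* from -1.20 to -0.38 and *Mt1* from 0.55 to 1.51 over the 20 settings. Among values called in either fit, the sign turned for *Slc30a5* with the GC and length offsets (0.31, 0.31 with the set block and 0.37 with the replicate block), *Slc30a1* with the covariates (0.29), *Slc30a4* within set 1 (0.086), with the offsets (0.053, 0.045 and 0.09) and the covariates (0.29), *Slc30a9* with the covariates (0.081) and *Slc39a9* with the offsets (0.16, 0.16 and 0.18) and the covariates (0.20), and the cause was not tested. Where neither value was called, the sign also turned for *Slc30a1* and *Slc30a5* within set 1 (0.05 and 0.04), *Slc30a5* and *Slc39a6* with the covariates (0.12 and 0.05), *Mtf1* within set 3 (-0.06) and *Slc39a9* in 5 settings (0.003 to 0.07, from -0.003).

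Genes called higher numbered 3836, and 1680, 2445 and 39 within sets 1, 3 and 4, 2462 with the offsets and the replicate block, and 1653 without sets 2 and 3 (an alternative chosen after seeing the data). Genes called lower numbered 3890, and 2124 with counts summed per set, 2518 without set 2, 1721 and 11 within sets 1 and 4, 1736 with the covariates and 1482 without sets 2 and 3. Within set 4, 1 of the 9 genes was called higher and 0 lower, as against 3 and 3. Of the further zinc genes, 4 were called higher, and 2 within set 1, 0 within set 4 and 2 without sets 2 and 3. Of these genes 2 were called lower, and 1 without set 2 or without set 3, but 0 with summed counts, within set 1 or 4, with any of the GC and length corrections, and without sets 2 and 3. Leaving out 1 library in turn gave 3630 to 3942 genes higher, 3707 to 4023 lower, 3 and 3 to 4 of the 9 genes, and 3 to 4 and 2 of the further zinc genes. It gave 680 to 4054 genes with a difference of effect between sets (680 without verapamil replicate 3, 1915 without verapamil replicate 9, 4054 without V11) and 0 to 5 between control sets, with 0 of the 9 genes in each.

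Control and verapamil libraries of the same replicate number showed little correlation of deviations. Of 10 numbers, 2 had a correlation over 0.1 (-0.057 to 0.131), and so did 0 of 4 sets. Unmatched libraries were not compared, so these values do not show whether the numbers pair the samples. With the replicate block, 3651 genes were higher and 3917 lower, and with the experiment set as the replicate block 3852 and 4073. Reads were fewest for *Slc39a1* (14 to 86 per control library), *Mt1* (23 to 160) and *Slc39a3* (30 to 162), where depth limits the values.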

Other observations

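Channels and carriers that also pass zinc, and the granule proteins stored with it, were on lists drawn up with earlier results of these data known. Their values come from the fit without GC and length correction. How the calls of these channel, carrier and granule genes depend on the alternative settings was not examined. Of 7 channel and carrier genes, 2 rose and 3 fell (edgeR, adjusted p under 0.05; median log2 fold change -0.16), close to the 31.2% higher and 31.6% lower over all genes tested. *Mcoln1*, a lysosomal cation channel, rose from 249.8 ± 14.87 to 333.1 ± 38.83 CPM (SD, n = 12 each; 0.42; adjusted p = 1.26e-06, edgeR), and *Slc11a2*, a metal transporter, by 0.33 (adjusted p = 0.000227). *Trpm7* fell from 314.2 ± 17.24 to 168.2 ± 115.9 CPM (-0.90; adjusted p = 0.00733, edgeR), with a spread among verapamil libraries far wider than among controls. *Trpm3*, a zinc-permeable channel of β-cells, was at -0.69 (adjusted p = 0.013) and *Trpm2* at -0.27 (adjusted p = 0.00113). The L-type channel genes *Cacna1c* and *Cacna1d*, which encode targets of verapamil, were at -0.16 (adjusted p = 0.231) and -0.11 (adjusted p = 0.408).

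Of 8 granule genes, 6 fell and 0 rose, beside 31.6% lower and 31.2% higher over all genes tested, with a median log2 fold change of -0.52 beside -0.003 over all genes tested. *Pcsk1*, a prohormone convertase, fell from 265.6 ± 46.69 to 55.49 ± 18.01 CPM (-2.26; adjusted p = 9.57e-12, edgeR), and *Ins2* from 1318 ± 159.9 to 634.8 ± 116.4 CPM (-1.05; adjusted p = 1.96e-10, edgeR). *Chgb*, *Chga*, *Cpe* and *Iapp* fell by 0.20 to 0.85 on the log2 scale. *Ins1* was at 485.2 ± 103 and 434.1 ± 126.4 CPM (adjusted p = 0.311, edgeR) and *Pcsk2* at 3742 ± 135.6 and 3631 ± 207.5 CPM (adjusted p = 0.271, edgeR). On the same scale *Slc30a8*, whose product supplies the zinc of these granules, was at -0.88.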
